A study of Mus musculus with 6 samples.

Results

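Genes of the Polycomb and DNA methylation machinery were examined in pRb-expressing and pRb-deficient osteoblasts. Of the 10 genes, Ezh1, Ezh2, Suz12 and Eed encode subunits of Polycomb repressive complex 2 (PRC2). The others, Dnmt1, Dnmt3a, Dnmt3b, Uhrf1, Hells and Tet1, encode enzymes and cofactors that place, copy or oxidise DNA methylation. Every probe set whose only annotated symbol was one of these genes was taken, which gave 32 of 45037 probe sets and 10 of 18032 genes measured. On these arrays, a set of short probes directed at 1 transcript makes up a probe set. The rule uses gene names and no signal, but the genes were chosen with earlier results of these data known.

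RNA came from 3 pRb-expressing cultures (genotype labelled Wild type) and 3 pRb-deficient cultures (labelled Rb Knockout), each hybridised to its own Affymetrix mouse array. All 6 were MC3T3 cultures, which here means calvarial osteoblasts of embryonic day 18.5 mice immortalised by serial passage on the 3T3 schedule. The mice came from crosses of flox19-RB1 animals, kept on C57BL/6, with animals carrying a Col1a1-Cre transgene (versions 2.3 and 3.6), in which a type I collagen promoter drives the Cre recombinase in bone-forming cells. F1 animals of genotype RBf19/WT;Col1a1-Cre were mated with each other to give the F2 animals that were used. Which of the Cre transgenes a culture carried, and whether pRb-expressing littermates carried Cre, is not given in the sources used here. The labels call the cultures biological replicates but do not tie them to separate animals or separate immortalised lines, so the p-values below measure only the spread between these cultures. Line of origin and pRb status cannot be told apart.

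Signals are MAS5 intensities on a linear scale, brought by the authors to a common trimmed mean on each array. For the tests, signals under 32, near background, were set to 32, and log2 values were fitted with limma with adjustment over all 38427 probe sets tested. Changes are given as log2 fold change, pRb-deficient over pRb-expressing, and a gene was called higher or lower at an adjusted p under 0.05. A gene is represented by its brightest probe set (highest mean over all arrays) unless another is named. Signals of different probe sets are not on a common scale, so levels are not compared between genes. A signal summed over a list is compared only between cultures, and it mainly follows the brightest probe sets of the list. Because each array measured bulk RNA, fewer cells of a type and less RNA per cell cannot be told apart.

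As a check of the labels, Rb1, which encodes pRb, had signals of 1124, 1119 and 1106 in pRb-expressing and of 143, 127 and 124 in pRb-deficient cultures. Its log2 fold change was −3.09 (standard error, SE, 0.10, limma adjusted p = 4.94e-06), or 8.52-fold lower. Whether its probes lie in the deleted part of the gene was not examined. Log2 signals correlated at 0.974 to 0.984 between arrays of a group and at 0.912 to 0.917 between groups (over probe sets, which cannot serve as replicates). Genes of the sex chromosomes differed too. Xist RNA, which silences an X chromosome in female cells, went from a mean of 168 ± 8.33 to one of 10965 ± 1319 (SD, n = 3 each), and the Y-linked Uty fell from 519 ± 70.6 to a level at or below 32 in every pRb-deficient culture. Xist and Uty are named because the groups differed in them, and sex of the cells and pRb status cannot be told apart here. Of 10 osteoblast marker genes measured, 9 were lower and 1 was higher in pRb-deficient cultures, beside 23.5% and 18.6% of all genes tested. Their summed signal was 60998 to 66399 in pRb-expressing and 22690 to 35272 in pRb-deficient cultures. Of the defining markers, Ibsp and Dmp1 were at or below 32 in every pRb-deficient culture, while Col1a1 was lower but still bright, at 18818 ± 1917 against 10945 ± 2388 (SD, n = 3 each; log2 fold change −0.80, adjusted p = 0.00895). Of 7 mesothelial markers, 3 were higher and 1 was lower, and their summed signal was 400 to 463 in pRb-expressing and 2831 to 3486 in pRb-deficient cultures. The higher ones were Msln, Bnc1 and Krt19, each at or below 32 in every pRb-expressing culture. Msln and Bnc1, with means of 1551 and 1271, made up most of the sum in pRb-deficient cultures. Upk1b was lower, from a mean of 255 to one of 112 (adjusted p = 0.00202), and Upk3b, Wt1 and Lrrn4 did not pass, with Wt1 at or below 32 on 5 of the 6 arrays and Upk3b at or below it in every pRb-deficient culture. These mesothelial genes were named after their values were seen. The part of these differences in the results below was not tested.

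PRC2 adds methyl groups to lysine 27 of histone H3, a mark of repressed chromatin. EZH2 or its slower relative EZH1 carries the catalytic site, EED binds the mark that the complex makes, and SUZ12 holds the complex together. DNA methylation at CpG sites is set by DNMT3A and DNMT3B and copied after replication by DNMT1, which is brought to newly made DNA by UHRF1. HELLS is a chromatin remodeller that opens nucleosomal DNA to these enzymes, and TET1 oxidises methylated cytosine as a step towards its removal. pRb represses E2F transcription factors, and several of these genes, Ezh2, Dnmt1 and Uhrf1 among them, are known E2F target genes in dividing cells.

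Since several of the 10 genes are described as E2F targets, all their listed promoters were searched for the short words that E2F factors are known to bind. RefSeq promoters (GRCm38.p6), 300 bases each, from 250 bases before to 50 bases after a transcription start, were searched on both strands for the 4 words TTTCCCGC, TTTCGCGC, TTTGCCGC and TTTGGCGC. The 10 genes have 15 promoters in this table, and 5 of these promoters, belonging to 5 genes (50%), held a word. The share was 2.26% of all 32851 promoters in the table, 4.01% of the 12948 tested genes with a promoter there, and 38.9% of 18 S phase and proliferation genes. The stretches around the word are shown for these 5 genes because they are the members in which a word was found. Each is written 5′ to 3′ on the gene's strand with the word in capitals, and the Dnmt1 word shown is read on the opposite strand. The same Dnmt1 promoter also held TTTGGCGC on the gene's own strand, at base 34 after the start, and that stretch is not shown.
Ezh2, chr6:47595005-47595067, minus strand, word starting at base 4 after the start: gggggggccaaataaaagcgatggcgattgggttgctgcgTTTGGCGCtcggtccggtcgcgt
Suz12, chr11:79992856-79992909, plus strand, word at −219: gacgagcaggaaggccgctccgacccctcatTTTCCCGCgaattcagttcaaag
Dnmt1, chr9:20952820-20952873, minus strand, word at −219 of its last listed promoter: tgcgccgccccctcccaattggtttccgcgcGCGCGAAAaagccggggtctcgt
Uhrf1, chr17:56304088-56304150, plus strand, word at −185 of its second listed promoter: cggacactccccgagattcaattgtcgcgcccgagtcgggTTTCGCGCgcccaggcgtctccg
Hells, chr19:38930888-38930950, plus strand, word at −62: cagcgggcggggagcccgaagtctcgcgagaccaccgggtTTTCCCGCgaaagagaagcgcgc
None of the 4 words was found in these windows of Ezh1, Eed, Dnmt3a, Dnmt3b or Tet1, which says only that these letters are not there. A match is a description of the sequence and not a measured binding site.

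Of the 10 genes, Dnmt1 and Hells were higher in pRb-deficient cultures, Ezh1, Ezh2, Eed, Dnmt3b, Uhrf1 and Tet1 were lower, and Suz12 and Dnmt3a did not pass the test. These are 2 of 10 genes higher and 6 of 10 lower, beside 18.6% and 23.5% of all 16177 genes tested. The signals of the groups did not overlap for 2 genes that were higher and 7 that were lower, beside 23.4% and 30.7% of all genes. Over the 10 genes the median log2 fold change was −0.55, and over all genes tested it was −0.09. Tet1, Uhrf1 and Dnmt3b changed at least 2-fold. Among the 5 genes with an E2F word in a promoter, Dnmt1 and Hells were higher and Ezh2 and Uhrf1 lower, while Suz12 did not pass.

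**Figure D1:**
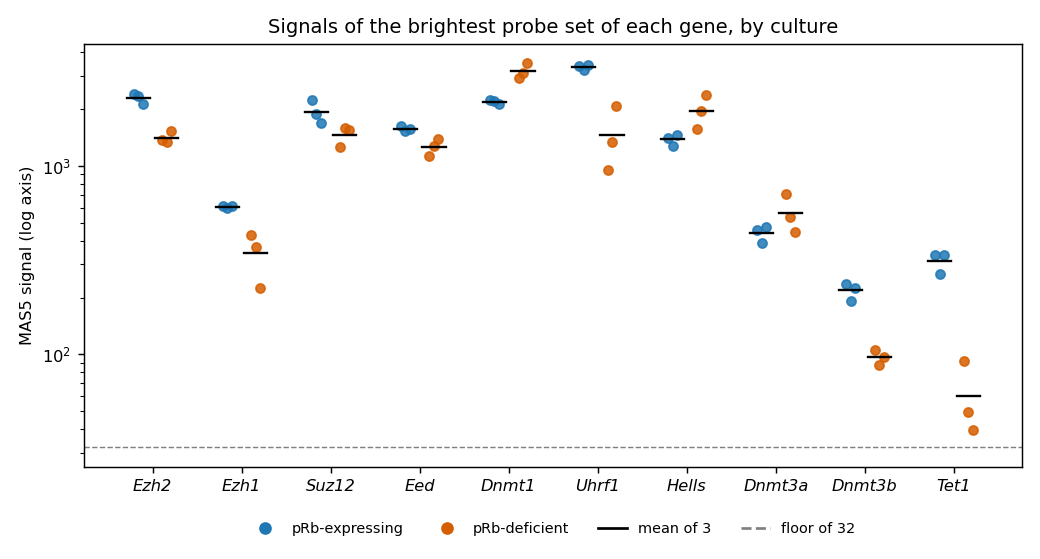
MAS5 signal (log axis) of the brightest probe set of each of the 10 genes in the 3 pRb-expressing (blue) and 3 pRb-deficient (orange) cultures; each point is a culture, the bars are group means and the floor of 32 is dashed. The groups do not overlap for any gene but Dnmt3a, and Tet1 shows the widest gap, from a mean of 313 to a mean of 60.1.

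Of the 4 PRC2 genes among the members, 3 were lower in pRb-deficient cultures. Ezh2, the catalytic subunit that prevails in dividing cells, had signals of 2411, 2362 and 2129 in pRb-expressing and of 1378, 1333 and 1531 in pRb-deficient cultures. Every pRb-deficient culture lay below every pRb-expressing one. The mean fell from 2301 ± 151 to 1414 ± 104 (SD, n = 3 each), a log2 fold change of −0.70 (SE 0.08, limma adjusted p = 0.000761) and a 1.63-fold lower signal, which was the lowest adjusted p of the 10 genes. Ezh2 is measured by a single probe set.

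Ezh1, the related subunit that is used more in cells that do not divide, had signals of 610.4, 595 and 615 in pRb-expressing and of 429, 373 and 226 in pRb-deficient cultures. The pRb-expressing cultures were close together and the pRb-deficient ones spread widely, with no overlap. The log2 fold change was −0.88 (SE 0.23, limma adjusted p = 0.0236), and it did not pass with any of the pRb-expressing arrays left out (adjusted p = 0.0667 to 0.0709). The second Ezh1 probe set, 1418290_a_at, read 363, 349 and 297 against 283, 241 and 239, again without overlap, with a log2 fold change of −0.40 (adjusted p = 0.0654). The other 2 were near the floor (0.09 and −0.04), so 1 of the 4 Ezh1 probe sets passed.

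Eed, which encodes the subunit that reads the mark, had signals of 1624, 1525 and 1563 against 1129, 1272 and 1385. The groups did not overlap, but the highest pRb-deficient culture lay close to the lowest pRb-expressing one. The log2 fold change was −0.32 (SE 0.09, limma adjusted p = 0.0295), the smallest of the changes that passed. The call was lost with pRb-deficient replicate 2 left out (adjusted p = 0.0805) and with any pRb-expressing array left out (0.0662 to 0.102). A dimmer Eed probe set, 1453830_at, had a log2 fold change of −0.05 (adjusted p = 0.905).

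Suz12 had signals of 2247, 1886 and 1694 in pRb-expressing and of 1267, 1579 and 1554 in pRb-deficient cultures. All pRb-deficient values were lower, but both groups varied, and the log2 fold change of −0.40 (SE 0.13, 95% interval −0.72 to −0.09, limma adjusted p = 0.0533) did not pass. The next brightest probe sets of the gene did pass, 1420021_s_at at −0.47 (adjusted p = 0.0211) and 1452364_at at −0.54 (adjusted p = 0.0341). The remaining 3 were dim and did not, at −0.10, −0.66 and −0.38. Whether Suz12 counts as lower thus depended on the probe set. With pRb-expressing replicate 3 left out, the brightest probe set also passed (adjusted p = 0.0424).

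Maintenance of DNA methylation showed opposite directions, with Dnmt1 and Hells higher and Uhrf1 lower. Dnmt1 had signals of 2231, 2208 and 2137 in pRb-expressing and of 2942, 3103 and 3508 in pRb-deficient cultures. The groups were well apart, at 2192 ± 49.0 and 3184 ± 291 (SD, n = 3 each). The log2 fold change was 0.54 (SE 0.08, limma adjusted p = 0.00206), or 1.45-fold higher. Both other Dnmt1 probe sets were higher as well, 1435122_x_at by 0.74 (adjusted p = 0.00229) and 1447877_x_at by 0.68 (adjusted p = 0.0115), although the suffix x marks probe sets that may bind other transcripts.

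Uhrf1, whose product brings DNMT1 to hemimethylated DNA, had signals of 3374, 3228 and 3447 in pRb-expressing and of 946, 1338 and 2070 in pRb-deficient cultures. The 3 pRb-expressing cultures agreed closely, while the pRb-deficient ones ranged over more than 2-fold, all of them below. The mean fell from 3350 ± 111 to 1451 ± 571 (SD, n = 3 each), a log2 fold change of −1.28 (SE 0.26, limma adjusted p = 0.00763). The second probe set, 1415811_at, read 1199, 1398 and 1169 against 458, 498 and 729 and gave −1.19 (adjusted p = 0.00228). Both Uhrf1 probe sets thus fell by similar amounts and kept the same order of the pRb-deficient cultures. The log2 signal of the Dnmt1 probe set minus that of the Uhrf1 probe set was −0.61 ± 0.07 (SD, n = 3) in pRb-expressing cultures and higher by 1.82 in pRb-deficient ones, with an SD there of 0.44. That difference joins probes of unequal response, and the pair was picked after the values were seen, so it carries no test and only its shift between groups can be read.

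Hells had signals of 1414, 1278 and 1459 in pRb-expressing and of 1564, 1951 and 2382 in pRb-deficient cultures. The groups did not overlap, and pRb-deficient replicate 1 was only slightly above the pRb-expressing cultures. The log2 fold change was 0.49 (SE 0.15, limma adjusted p = 0.0440), close to the threshold, and the call was lost with any array but pRb-deficient replicate 1 left out (adjusted p = 0.0698 to 0.134). Its other 2 probe sets gave −0.08 and −0.01 and did not pass, so only the brightest of 3 was higher.

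Of the de novo methyltransferases, Dnmt3b was lower and Dnmt3a did not pass. Dnmt3b had signals of 235, 193 and 226 in pRb-expressing and of 105, 87.7 and 97.2 in pRb-deficient cultures. The pRb-deficient cultures were tightly grouped at less than the lowest pRb-expressing value. The log2 fold change was −1.17 (SE 0.18, limma adjusted p = 0.00211), or 2.25-fold lower. The second probe set, 1418351_a_at, did not share this, with 154, 143 and 159 against 158, 78.2 and 202 and a log2 fold change of −0.17 (95% interval −0.99 to 0.66). The suffix a marks probe sets that bind several transcript forms of the same gene, and which forms each detects was not examined.

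Dnmt3a had signals of 458, 392 and 475 in pRb-expressing and of 705, 538 and 443 in pRb-deficient cultures. The groups overlapped, and the log2 fold change of 0.33 had an interval of −0.10 to 0.76 (limma adjusted p = 0.220). None of the 5 Dnmt3a probe sets passed. Their log2 fold changes ran from −0.31 for 1423064_at to 1.33 for 1423066_at (adjusted p = 0.0718).

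Tet1 showed the largest change of the 10 genes. Its signals were 337, 268 and 335 in pRb-expressing and 91.7, 49.1 and 39.6 in pRb-deficient cultures, the last of these close to the floor. The lowest pRb-expressing culture was well above the highest pRb-deficient one. The mean fell from 313 ± 39.4 to 60.1 ± 27.7 (SD, n = 3 each), a log2 fold change of −2.47 (SE 0.33, 95% interval −3.25 to −1.69, limma adjusted p = 0.00123) and a 5.54-fold lower signal. A second probe set, 1419896_at, read 174, 218 and 176 against 128, 130.2 and 117 and gave a smaller fall of −0.59 (adjusted p = 0.0355). Another, 1429448_s_at, had no overlap between groups at −0.69 but did not pass (adjusted p = 0.109), and the last was at or below 32 on every array and was not tested. All 3 tested Tet1 probe sets were thus lower in every pRb-deficient culture, by unequal amounts.

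**Figure D2:**
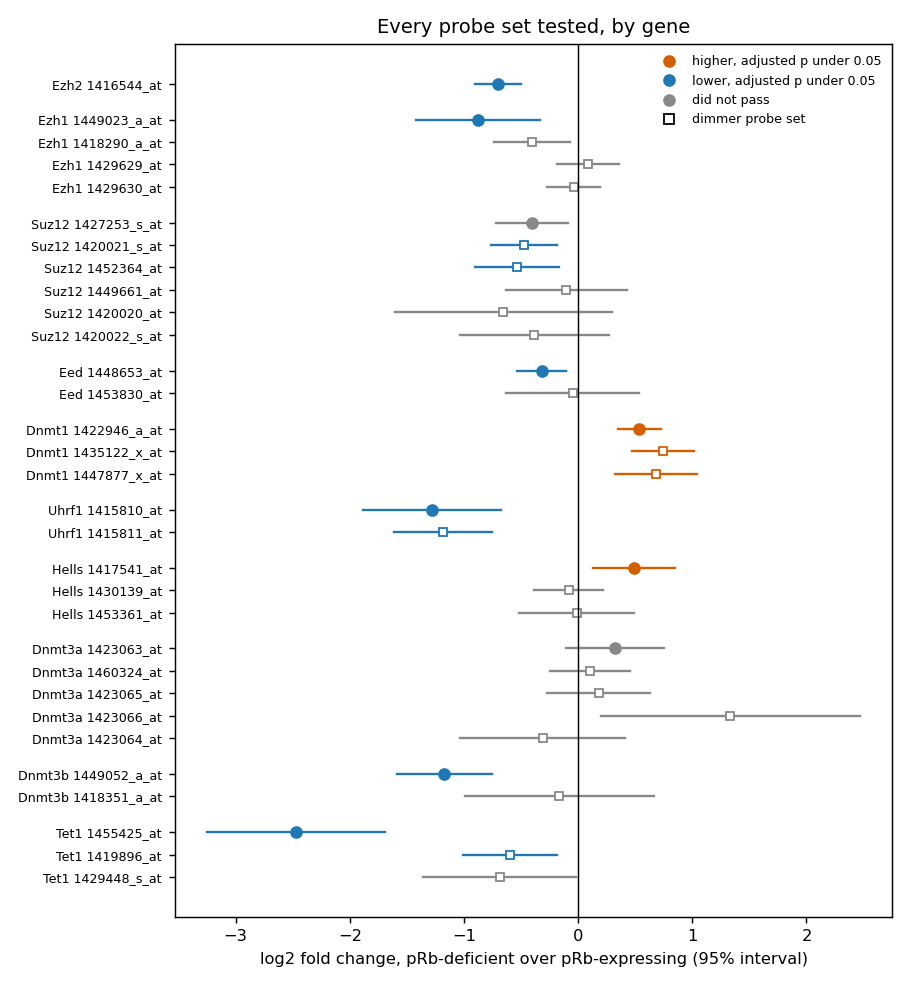
Log2 fold change, pRb-deficient over pRb-expressing, of each of the 31 probe sets tested, with 95% intervals; filled circles are the brightest probe set of a gene, open squares the dimmer ones, and colour gives the call (orange higher, blue lower, grey not passed). All 3 Dnmt1 and both Uhrf1 probe sets passed in one direction, whereas for Ezh1, Eed, Hells and Dnmt3b only the brightest did.

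Over all probe sets of the 10 genes, 31 of 32 were tested, of which 4 were higher, 10 were lower and the other 17 did not pass. The shares over all probe sets tested were 16.2% higher and 18.8% lower. None of the 8 probe sets with a mean signal under 100 passed. In Dnmt1, Uhrf1 and Tet1 a dimmer probe set passed in the same direction as the brightest, in Ezh1, Eed, Hells and Dnmt3b none did, and in no gene did probe sets pass in opposite directions.

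Whole chromosomes differed in level between the groups, and the 10 genes were therefore set beside the other genes of their chromosomes. For each gene the median log2 fold change was taken over genes of the same chromosome whose mean signal reached 200, and again over up to 10 nearest such genes on each side. Ezh2 lies on chromosome 6, whose 481 genes had a median of −0.58, and 13 of its 20 neighbours were lower and 2 higher. Ezh1 and Suz12 both lie on chromosome 11, which had a median of −0.52 over 798 genes, and 13 and 11 of their 20 neighbours were lower. Eed on chromosome 7 had a chromosome median of −0.33 and a neighbour median of −0.62. All 4 PRC2 members thus lie on chromosomes with lower medians. Dnmt1 on chromosome 9 (0.28) and Dnmt3a on chromosome 12 (0.27) lie on chromosomes with higher medians, although the 20 nearest neighbours of Dnmt1 had a median of −0.03. Hells on chromosome 19 (0.12) had 10 of 20 neighbours higher and none lower. Dnmt3b on chromosome 2 (−0.33) and Uhrf1 on chromosome 17 (−0.26) lie on chromosomes with lower medians. Tet1 is the exception, since chromosome 10 had a median of 0.13 and 11 of its 20 neighbours were higher. In sign, 9 of the 10 genes followed their chromosome, beside 76.1% of 5692 called genes and 69.9% of 9647 tested genes of that brightness.

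With each chromosome's median removed before the fit, 1 of the 10 genes was higher and 3 were lower, beside 19.7% and 19.5% of all genes. Tet1 stayed lower at −2.60 (limma adjusted p = 0.00125), Uhrf1 at −1.02 (adjusted p = 0.0223) and Dnmt3b at −0.85 (adjusted p = 0.00949). Dnmt1 stayed higher at 0.26 (adjusted p = 0.0475). These 4 are thus the members called against the median of their chromosomes. None of the PRC2 members passed. Ezh2 was at −0.12 (adjusted p = 0.320), Ezh1 at −0.36 (adjusted p = 0.280), Suz12 at 0.12 (adjusted p = 0.541) and Eed at 0.01 (adjusted p = 0.946). Suz12 and Eed changed sign. Hells did not pass at 0.37 (adjusted p = 0.106), nor did Dnmt3a at 0.06 (adjusted p = 0.842). The median over the 10 genes was −0.05 on this scale. Gene dosage was not measured, and its part was not tested.

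**Figure D3:**
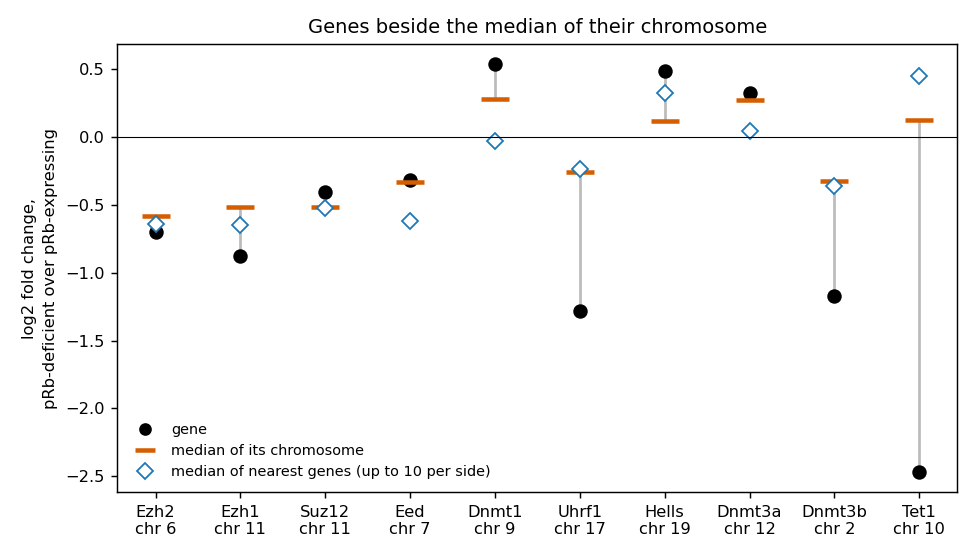
Log2 fold change, pRb-deficient over pRb-expressing, of each gene (black point), with the median of its chromosome (orange bar) and of its nearest genes, up to 10 on each side (open blue diamond). Ezh2, Suz12 and Eed sit near one or both of these medians, while Tet1, Uhrf1 and Dnmt3b lie well below them and Dnmt1 above.

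The pRb-deficient cultures differed among themselves in several of the 10 genes. Some of these genes had the order seen in proliferation genes and others the opposite order. How often genes in general show either full order was not counted, so the orders below only describe the members. Against the mean of the pRb-expressing cultures, the median of 23 genes of S phase and proliferation was −0.63 in pRb-deficient replicate 1, −0.37 in replicate 2 and 0.12 in replicate 3 (log2). Of those 23 genes, replicate 3 was the highest pRb-deficient culture in 22 and replicate 1 the lowest in 19, whereas over 9653 genes whose mean signal reached 200 the shares were 36.5% and 37.8%. Over the 10 members, replicate 3 was the highest in 5 (50%) and replicate 1 the lowest in 5 (50%). Replicate 1 was the highest in 4 members (40%) and replicate 3 the lowest in 3 (30%), beside 42.1% and 41.8% of the 9653 genes. Uhrf1 had the order of the proliferation genes, at −1.82, −1.32 and −0.69. Hells was at 0.18, 0.50 and 0.79, Dnmt1 at 0.42, 0.50 and 0.68, and Eed at −0.48, −0.30 and −0.18, all with replicate 1 lowest and replicate 3 highest. Ezh1, at −0.50, −0.70 and −1.43, had the opposite order, and so did Tet1, at −1.77, −2.67 and −2.98, and Dnmt3a, at 0.68, 0.29 and 0.01. Ezh2 varied little, from −0.79 to −0.59. The SD of log2 signal between pRb-deficient cultures was 0.63 for Tet1, 0.57 for Uhrf1 and 0.49 for Ezh1, above 98.1%, 97.2% and 95.6% of those genes. Between pRb-expressing cultures the SD of Uhrf1 was 0.05 and that of Ezh1 0.02. Whether proliferation has a part in these differences was not tested.

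**Figure D4:**
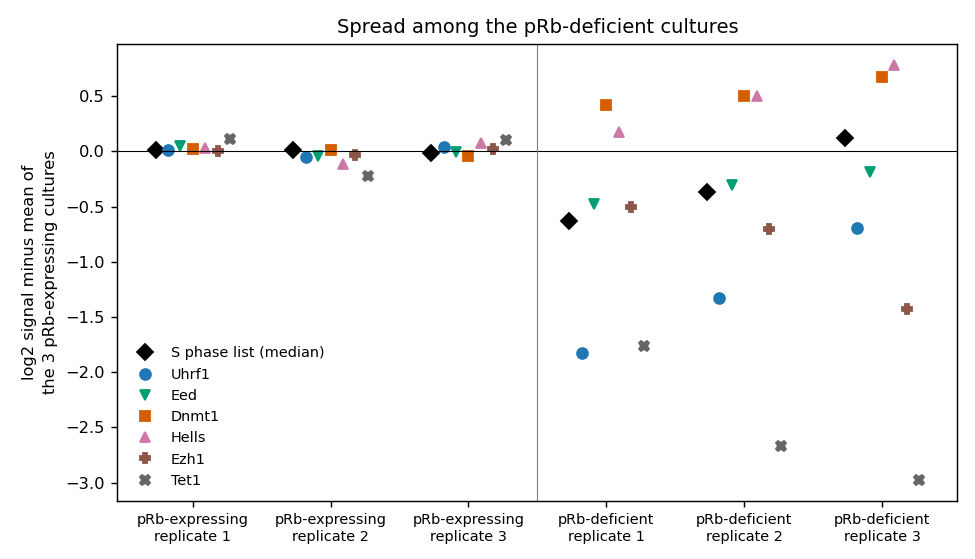
Log2 signal of selected genes and the median of the S phase and proliferation genes in each of the 6 cultures, relative to the mean of the 3 pRb-expressing cultures. Among pRb-deficient cultures, Uhrf1, Hells and the S phase median are lowest in replicate 1 and highest in replicate 3, while Tet1 and Ezh1 are highest in replicate 1 and lowest in replicate 3.

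Of the 23 proliferation genes, 3 were higher and 4 lower, beside 18.6% and 23.5% of all genes tested, while 16 did not pass. Their median log2 fold change was −0.30. In sign, 19 of the 23 followed their chromosome, and with chromosome medians removed the median was 0.04, with 3 genes higher and 2 lower. The 4 with the lowest adjusted p were Cdt1, a licensing factor, at 0.63 (adjusted p = 0.000341), Cdc45, a part of the replicative helicase, at 0.69 (adjusted p = 0.000618), Mcm7, another part of that helicase, at 0.74 (adjusted p = 0.000902), and Cdc6, which loads it, at −1.30 (adjusted p = 0.00225). The count of lower genes rose to 13 with pRb-deficient replicate 3 left out, and it was 1 and 2 with pRb-expressing replicates 1 and 3 left out. The summed signal of the list was 68780 to 69963 in pRb-expressing and 49150 to 77242 in pRb-deficient cultures.

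The further PRC2 genes read, Rbbp4 and Rbbp7 among them, mostly did not pass. Of these 7 genes, 1 was higher and 1 lower, beside 18.6% and 23.5% of all genes tested. The other 5 did not pass, and the median log2 fold change was 0.03. Aebp2, a DNA-binding cofactor, fell from 3837 ± 101 to 1939 ± 61.5 (SD, n = 3 each), a log2 fold change of −0.99 (limma adjusted p = 4.47e-05), and stayed lower with the median of chromosome 6, which it shares with Ezh2, removed (−0.40, adjusted p = 0.00248). Rbbp4, a histone chaperone that was first found as a pRb-binding protein, rose from 6072 ± 137 to 8955 ± 281 (SD, n = 3 each), a log2 fold change of 0.56 (adjusted p = 0.000506). The probe set read, 1434892_x_at, is 1 of 4 of the gene, and its suffix x marks possible binding to other transcripts. With the median of chromosome 4 removed, Rbbp4 stayed higher at 0.51 (adjusted p = 0.000971). Its relative Rbbp7 was at 0.05 (adjusted p = 0.679). Jarid2, which helps recruit the complex, was at 0.03, and the Polycomb-like proteins Phf1 and Mtf2 were at −0.09 and −0.03. The third Polycomb-like gene, Phf19, had no overlap between groups at 0.46 but did not pass (adjusted p = 0.0749), and with its chromosome median removed it was higher at 0.78 (adjusted p = 0.0107).

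PRC1, the complex that adds ubiquitin to histone H2A, changed in most of its subunits and in both directions. Of 20 genes measured, 8 were higher and 9 lower, while 3 did not pass, beside 18.6% and 23.5% of all genes tested, and the median log2 fold change was −0.14. With all probe sets of a gene averaged, 5 genes were lower. The 4 with the lowest adjusted p were all higher. Scmh1, a Sex comb on midleg relative, rose from 572 ± 22.2 to 1504 ± 95.7 (SD, n = 3 each; log2 fold change 1.39, adjusted p = 3.4e-05) and Phc2, a Polyhomeotic protein, from 1850 ± 112 to 4468 ± 399 (1.27, adjusted p = 7.09e-05). The Phc2 value is from 1437239_x_at, 1 of 2 probe sets of the gene, again with the suffix x. Yaf2, a partner of the ring subunits, rose from 1249 ± 59.7 to 2691 ± 233 (adjusted p = 0.000107). Pcgf5, which defines one of the variant complexes, rose by 0.94 (adjusted p = 0.000167). The catalytic subunits, chosen for mention after their values were seen, were lower, Ring1 at −1.07 (adjusted p = 0.00564) and Rnf2 at −0.30 (adjusted p = 0.0112). In sign, 16 of the 20 genes followed their chromosome. With chromosome medians removed, 6 genes were higher and 4 lower, and Rnf2 turned to 0.21 (adjusted p = 0.0464).

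Enzymes that remove the Polycomb marks and their partners made up 5 genes, of which 1 was higher and 1 lower. The shares over all genes tested were 18.6% and 23.5%. Kdm6a, an H3 lysine 27 demethylase, rose from 498 ± 35.0 to 1050.4 ± 175 (SD, n = 3 each), a log2 fold change of 1.07 (limma adjusted p = 0.000914). Kdm6a lies on the X chromosome and is known to escape X inactivation. The Xist and Uty signals given above differed between the same groups, and the part of sex in the Kdm6a value was not tested. With the median of the X chromosome removed, Kdm6a was at 0.90 (limma adjusted p = 0.00247). Asxl1, the partner of the H2A deubiquitinase BAP1, fell from 2024 ± 73.2 to 918 ± 24.7, a change of −1.14 in log2 (adjusted p = 3.42e-05). With its chromosome median removed it was at −0.81 (adjusted p = 0.000151). The related demethylase gene Kdm6b was at −0.14 (adjusted p = 0.785), Bap1 at −0.01 (adjusted p = 0.970) and Asxl2 at 0.30 (adjusted p = 0.229), and their groups overlapped.

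Among partners and readers of DNA methylation, 4 of 13 genes were higher and 2 lower, beside 18.6% and 23.5% of all genes tested. The other 7 did not pass, and the median log2 fold change was 0.47. Uhrf2, the relative of Uhrf1, rose from 779 ± 39.5 to 1267 ± 57.5 (SD, n = 3 each), a log2 fold change of 0.70 (limma adjusted p = 0.000492), opposite in sign to Uhrf1. The methyl-CpG binding genes Mbd2, at 0.47 (adjusted p = 0.00158), and Mbd3, at 0.52 (adjusted p = 0.00759), were higher, and Trdmt1, a tRNA methyltransferase of the DNMT family, was lower at −0.43 (adjusted p = 0.00843). Tet2, chosen for mention after its value was seen, was higher at 1.04 (adjusted p = 0.0247), where Tet1 was lower. Tet3, added in the same way, did not pass at 0.84 (adjusted p = 0.194) and was at or below the floor in 3 cultures. With chromosome medians removed, 4 genes were higher and 1 was lower. Uhrf2, at 0.59, Tet2, at 0.93, and Mbd3, at 0.40, stayed higher. Tet3 was also counted, at 1.42 (adjusted p = 0.0474), but its groups overlapped. The median of its chromosome 6, −0.58, was subtracted after the floor was set, which raises even a floored pRb-deficient value. The Tet3 call on that scale is therefore not read as a change. Mbd2, at 0.19 (adjusted p = 0.0729), and Trdmt1, at −0.11 (adjusted p = 0.385), no longer passed. Usp7, added as the other lower gene of the list, was at −0.02 (adjusted p = 0.902) on that scale. Neither Usp7 nor Trdmt1 was called lower with all probe sets of a gene averaged.

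**Figure D5:**
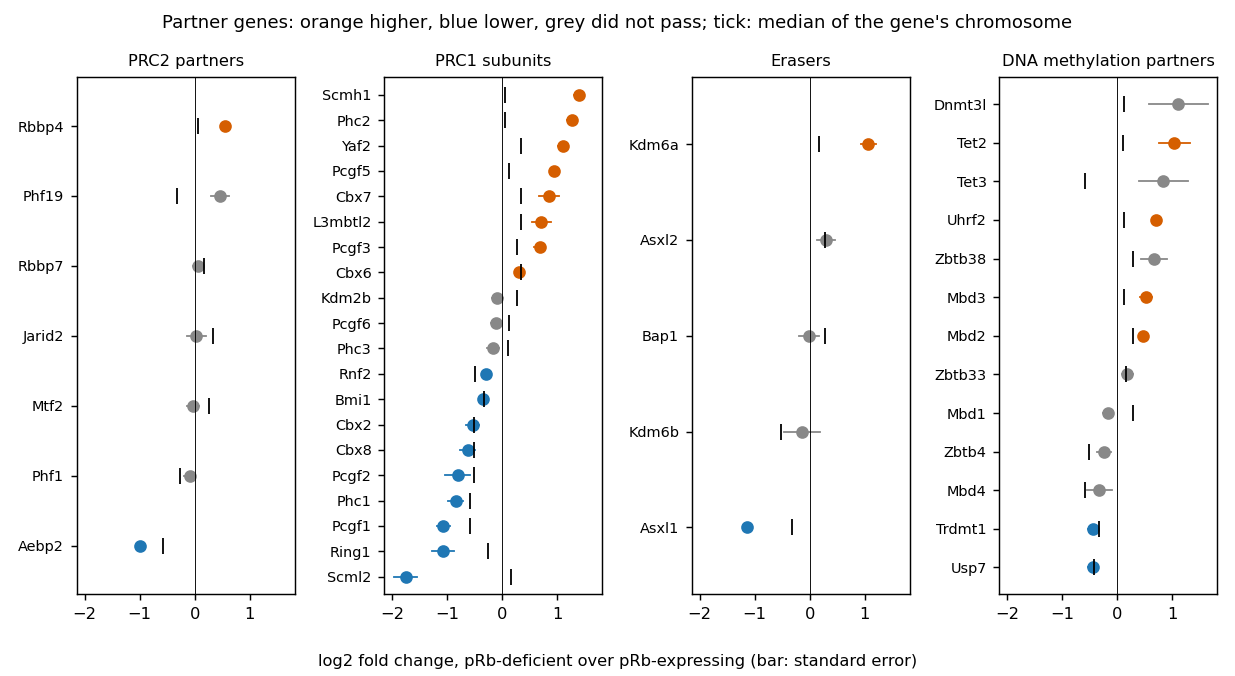
Log2 fold change with standard error of the measured and tested genes of PRC2 partners, PRC1 subunits, erasers of the Polycomb marks, and partners and readers of DNA methylation; orange is higher, blue lower and grey not passed, and the black tick is the median of the gene's chromosome. Aebp2 and Asxl1 are the lowest of their panels, and Scmh1 and Phc2 the highest of the PRC1 subunits.

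Genes that these marks are known to hold silent were then read in the same way. Of 20 germline genes that DNA methylation keeps silent in somatic cells, 12 were above the floor on some array and were tested. Of these, 1 was higher, 1 was lower and 10 did not pass, beside 18.6% higher and 23.5% lower over all genes tested. Brdt, a bromodomain gene of male germ cells, rose from a mean of 57.0 to one of 155 (log2 fold change 1.43, adjusted p = 0.00582), and Rhox5, an X-linked homeobox gene, fell from 98.8 to 37.5 (−1.28, adjusted p = 0.00915, with 1 array at or below the floor). All of these signals were low. With all probe sets of a gene averaged, no gene of this list was higher, and with a floor of 100 none was lower. Of 14 developmental regulators known as Polycomb targets in stem cells, 10 were tested. Of these, 4 were higher, 1 lower and 5 did not pass, beside the same shares of all genes tested. Eomes, added as the higher gene with the highest adjusted p (0.0239), was near the floor. It was at or below 32 in every pRb-expressing culture and at 40.7, 60.5 and 49.7 in pRb-deficient ones. The count of higher genes was 3 without a floor, with a floor of 100, a pseudocount or the brightness filter. Gata6, an endoderm and heart factor, rose from 116 ± 8.15 to 408 ± 18.6 (SD, n = 3 each; log2 fold change 1.81, adjusted p = 0.000105), and Pax6, an eye and brain factor, fell from 231 ± 7.91 (SD, n = 3) to signals of 19.9, 21.9 and 36.1 (adjusted p = 4.58e-05, with the 2 lowest set to the floor, at least 6.93-fold). The cell cycle inhibitor genes Cdkn2a and Cdkn2b stand in the same list. Cdkn2a was at 4.08 (adjusted p = 8.39e-05), from signals of 56, 38.2 and 67.8 in pRb-expressing cultures. Cdkn2b was below the floor in every pRb-expressing culture and at least 124-fold higher in pRb-deficient cultures. Both lie on chromosome 4, and whether they are intact in the pRb-expressing cultures was not tested. Histone and DNA methylation themselves were not measured on these arrays.

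The genes whose signals most resembled those of Ezh2, the member with the lowest adjusted p, were Sertad1, Nelfb and Chmp2b, each with a Pearson r of 0.999 over the 6 arrays. They lie on chromosomes 7, 2 and 16. Such values are common where the groups differ in many genes, since 2129 of 9652 genes (22.1%) had an r over 0.9 with Ezh2.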

How the data were processed

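RNA of 3 pRb-expressing and 3 pRb-deficient cultures was biotin-labelled and hybridised by the authors, 1 array per culture. The deposited intensities are MAS5 signals on a linear scale, scaled by the authors to a trimmed mean of 500. Affymetrix Expression Console 1.1, with MAS5, is named in the submitters' notes on processing. Medians were 107.7 to 119.5, and each array had 24.4% to 26.6% of its probe sets at or below 32. The number of arrays limits the precision. No detection calls were in the table used.

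From these values, 64 controls and 6610 probe sets at or below 32 on all arrays were left out. A floor of 32 was set, and log2 values were fitted in limma 3.58.1 under R 4.3.3 (lmFit, eBayes with an intensity trend, 4 residual degrees of freedom). Tests are two-sided, with p-values adjusted by Benjamini and Hochberg over 38427 probe sets, with a threshold of 0.05. The array's annotation table pairs 34945 probe sets with 1 symbol, 932 with several and 9160 with none, and 34741 had a gene ID in RefSeq (GRCm38.p6), which gave chromosomes and gene order. The steps were tested on simulated data with independent noise for each probe set and no shifts of whole chromosomes, so that test does not cover such shifts. The exact rank test of the study's methods cannot go below p = 0.1 with 3 against 3 and was kept as an alternative.

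The members, the gene lists and the treatment of chromosomes were chosen with earlier results of these data known. Named in the text are all 10 members with their probe sets, Rb1, up to 4 genes per pathway list with the lowest adjusted p, every gene of the lists of PRC2 partners and of erasers, the 3 genes most like the member with the lowest adjusted p, and osteoblast markers. Other names are said to have been added. Markers of smooth muscle (2 of 7 tested higher, 3 lower), chondrocytes (1 and 2 of 7), adipocytes (0 and 1 of 5), endothelium (0 and 0 of 6), hematopoietic cells (3 and 1 of 8), epithelium (0 and 1 of 6) and skeletal muscle (0 and 1 of 6) were read as well. Alternatives were other floors, a pseudocount, a brightness filter, quantile and median scaling, no intensity trend, array weights, a replicate block, chromosome medians, a 2-fold minimum, averages over probe sets and each array left out. Some genes are not analysed here.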

Additional observations from a re-analysis of the deposited data

How the results depend on the processing

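The count of member genes higher, 2, became 1 under quantile normalization, without the intensity trend, with chromosome medians subtracted and with all probe sets of a gene averaged. It became 0 under limma's treat at 2-fold and under a 2-fold minimum, and was 1 to 2 with 1 array left out. The count of member genes lower, 6, became 3 with chromosome medians subtracted, 1 under treat and 3 under the 2-fold minimum. It was 4 to 6 with 1 array left out. It rose to 7 without a floor, with a floor of 100, a pseudocount, the brightness filter, quantile normalization or array weights. With median scaling, without the intensity trend and with probe sets averaged it was 5. Over all genes, 3015 higher became 538 under treat and 1185 under the 2-fold minimum, and 2453 to 3059 with 1 array left out. The 3796 lower became 469 and 1354, and 3089 to 3843. With chromosome medians subtracted, Suz12 turned to 0.12 and Eed to 0.0098 on the log2 scale, which follows from the construction of that setting. Tet1 passed in all 18 settings, Dnmt1, Dnmt3b and Uhrf1 in 17 (all but treat), Ezh2 in 16, Ezh1 in 12, Suz12, Eed and Hells in 8 each, and Dnmt3a in none. The replicate numbers did not pair the arrays (same-number correlations of 0.02, −0.03 and 0.06, and 2 of 6 arrays correlated best with their own number), and with the replicate number as a block Eed did not pass (−0.32, adjusted p = 0.0589), so that 2 members were higher and 5 lower. Except for the settings named in the report and here, the causes of lost calls were not tested. None of the 8 member probe sets with a mean signal under 100 passed.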
